A study of Mus musculus with 9 samples.

Results

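The MAP kinase genes of the mouse and the dual specificity phosphatase (Dusp) genes were described here by the accessibility of their promoters. Members were chosen by symbol: the Map4k, Map3k, Map2k, Mapk and Mapkapk kinases and the numbered Dusp phosphatases. RefSeq holds 70 such genes, and 53 of them, 37 of 46 kinases and 16 of 24 phosphatases, had a window among the 10188 genes that could be given one. Each of the 53 had exactly 1 window. The other 17 (Map3k9, Map3k13, Map3k15, Map3k19, Map3k21, Mapk7, Mapk10, Mapk13, Mapk15, Dusp9, Dusp13, Dusp14, Dusp18, Dusp21, Dusp22, Dusp26 and Dusp27) were not analysed here.

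The cells were HPC7, a mouse blood progenitor line grown with stem cell factor, and accessibility was read by ATAC-seq, in which the transposase Tn5 tags open DNA. All carried the retroviral vector MIG: with wildtype Snai1 (FLAG-tagged per the series text; 3 libraries), with the mutant mut5Snai1 (3 libraries, not analysed here) or empty (EV, 3 libraries). Snai1 is a zinc finger repressor that binds E-box letters and recruits histone-modifying enzymes. The comparison addressed which promoters open or close when progenitors carry ectopic Snai1. All values come from the authors' deposited table of Snai1 against EV, which gives 1 log2 concentration (DiffBind's read measure of a window) per group. The table gives no value per library, so no SD can be attached. Whether the concentration is divided by window length is not stated. Windows on the plus strand are longer than those on the minus strand. Rankings by concentration, such as most open, least open or weakly open, therefore compare windows of different lengths. Nothing in the labels ties the libraries of a group to separate cultures, and the authors' p-values then measure a spread that may be technical. Every sample derives from 1 parental line, and in the Snai1 libraries the factor is expressed from a virus. The sources used here give no read depth per library. Of 11 blood progenitor markers 10 had a window, among them Kit and Ptprc, against 2 of 7 stromal and 0 of 5 epithelial markers. A window that loses accessibility in a bulk library may be open in fewer cells or less open in each, and these cannot be told apart.

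MAP kinase signalling runs through tiers. MAP4Ks and small GTPases activate MAP3Ks, MAP3Ks phosphorylate MAP2Ks, and MAP2Ks phosphorylate the MAP kinases ERK, JNK and p38 on a threonine and a tyrosine of the activation loop. MAPKAP kinases are substrates that carry the signal on. Dual specificity phosphatases of the MAP kinase phosphatase (MKP) class remove both phosphates. Several of their genes are switched on by the pathway itself, which gives a negative feedback loop. In blood progenitors the ERK branch lies downstream of the stem cell factor receptor Kit.

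The promoters of the members with changes beyond 0.5 log2 (Dusp3, Dusp5, Dusp8 and the neighbouring p38 genes Mapk11 and Mapk12), of Map4k2, the called kinase window next in size, and of Dusp6, an ERK phosphatase set beside Dusp5, are given as the 250 bases up to the RefSeq start of transcription (GRCm38.p6, the same coordinates as mm10), 5′ to 3′. Capitals mark letters found on either strand: the Snai1 E-box CAGGTG, the cyclic AMP response element TGACGTCA, the shorter core of that element, TGACG, and the CArG box bound by serum response factor. The CArG box, which is not spelled out since its middle letters vary between A and T, was added to the search after these letters had been read. The whole element and its core overlap by construction. The sequences lie at chr19:53528895-53529144 on the plus strand for Dusp5, chr11:101984792-101985041 on the minus strand for Dusp3, chr7:142095285-142095534 on the minus strand for Dusp8, chr10:99262981-99263230 on the plus strand for Dusp6, chr15:89149607-89149856 on the minus strand for Mapk11, chr15:89140704-89140953 on the minus strand for Mapk12 and chr19:6340910-6341159 on the plus strand for Map4k2.
Dusp5: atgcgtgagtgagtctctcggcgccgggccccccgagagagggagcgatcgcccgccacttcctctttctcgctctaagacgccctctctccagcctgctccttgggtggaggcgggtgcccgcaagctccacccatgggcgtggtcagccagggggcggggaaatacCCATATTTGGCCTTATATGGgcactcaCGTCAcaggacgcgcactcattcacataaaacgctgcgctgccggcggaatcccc
Dusp3: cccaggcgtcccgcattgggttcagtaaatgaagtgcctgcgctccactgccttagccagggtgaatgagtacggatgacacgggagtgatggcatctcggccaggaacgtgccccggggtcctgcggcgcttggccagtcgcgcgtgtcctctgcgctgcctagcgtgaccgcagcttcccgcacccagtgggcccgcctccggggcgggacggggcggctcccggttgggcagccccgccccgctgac
Dusp8: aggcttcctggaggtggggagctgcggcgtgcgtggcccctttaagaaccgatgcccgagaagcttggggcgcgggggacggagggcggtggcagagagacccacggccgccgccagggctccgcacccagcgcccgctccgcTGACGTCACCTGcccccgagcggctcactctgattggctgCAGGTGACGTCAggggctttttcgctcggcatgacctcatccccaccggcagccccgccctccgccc
Dusp6: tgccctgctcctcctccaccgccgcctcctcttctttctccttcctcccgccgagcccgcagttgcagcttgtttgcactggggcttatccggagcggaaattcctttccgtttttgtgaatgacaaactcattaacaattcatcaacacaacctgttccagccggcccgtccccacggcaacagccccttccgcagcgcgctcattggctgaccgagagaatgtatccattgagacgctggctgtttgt
Mapk11: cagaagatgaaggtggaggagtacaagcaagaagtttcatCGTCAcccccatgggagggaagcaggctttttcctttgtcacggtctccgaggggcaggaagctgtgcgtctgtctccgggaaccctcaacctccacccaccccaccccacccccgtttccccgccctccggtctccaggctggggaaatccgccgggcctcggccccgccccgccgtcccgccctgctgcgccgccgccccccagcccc
Mapk12: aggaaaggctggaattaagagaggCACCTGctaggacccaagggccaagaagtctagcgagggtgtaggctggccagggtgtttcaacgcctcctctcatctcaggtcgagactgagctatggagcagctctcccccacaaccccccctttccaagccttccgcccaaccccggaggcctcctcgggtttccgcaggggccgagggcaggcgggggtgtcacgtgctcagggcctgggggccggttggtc
Map4k2: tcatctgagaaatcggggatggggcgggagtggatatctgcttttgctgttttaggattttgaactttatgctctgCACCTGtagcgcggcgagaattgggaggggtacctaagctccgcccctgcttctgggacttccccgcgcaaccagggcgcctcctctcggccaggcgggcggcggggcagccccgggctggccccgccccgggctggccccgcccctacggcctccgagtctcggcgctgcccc
The Dusp8 promoter held 2 whole cyclic AMP response elements, beginning 107 and 63 bases before the start, each overlapping a Snai1 E-box, beginning 101 and 67 bases before the start, in mirrored order. Dusp5 held 2 adjoining CArG boxes, beginning 82 and 72 bases before the start. This RefSeq start of Dusp5 lies 173 bp upstream of the start position of its window, whereas the positions coincide for the other promoters shown. Mapk12 and Map4k2 each held 1 E-box, 226 and 174 bases before the start, and neither Dusp3 nor Dusp6 held any of the searched letters in the 250 bases.

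Across the promoters of 300 bases (250 before and 50 after the start) that lay inside a window, 8 of 44 members held the E-box (18.2%), against 16% of 8047 genes. Among the members called higher in Snai1 it was in 2 of 5 (Dusp8 and Dusp11), among those called lower in 3 of 9 (Map3k1, Map4k2 and Mapk12), and among those not called in 3 of 30 (Dusp7, Map2k1 and Map3k4). It was thus present on both sides of the comparison. The whole cyclic AMP response element was in Dusp1 and Dusp8 alone of the 44 members (4.55%, against 3.58% of all genes), and its core was in 19 of 44 (43.2%, against 34.6%). The AP-1 letters TGANTCA were in 2 members, Map2k6 and Map3k10 (4.55%, against 4.42%), and a serum response element with fixed letters was in 0 (0.0373% of all genes). A CArG box was in Dusp5 alone (2.27%, against 1.12%). It was searched for only after these promoters had been read, so this share is not an independent count. All searches covered both strands, and the shares were not tested.

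In Snai1 cells the strongest losses among these genes were at the phosphatases Dusp3 and Dusp5 and the p38 kinases Mapk12 and Mapk11, and the strongest gain was at the phosphatase Dusp8, a window that was nearly closed in both groups. The losses were at weak windows too, with mean concentrations in the lowest 0.9% of all windows for Mapk12, 8% for Dusp3, 8.1% for Mapk11 and 10.9% for Dusp5. Most other windows had changes under 0.25 on the log2 scale. By the authors' FDR at 0.05, 18 of the 53 genes were called, 7 higher and 11 lower in Snai1 (34%, with 13.2% higher and 20.8% lower). Over all 10188 genes 29.9% were called, 19.6% higher and 10.3% lower, so the members' total was near the background while their split between directions was the other way round, a contrast that was not tested. That contrast held for the values as deposited: less the median of all windows, 5 members were higher and 15 lower, and all genes split the same way (7.25% higher and 13.8% lower). The members' total was then 20 of 53, above the 21% of all genes, which was not tested either. The median change of the members was 0.02 log2, against 0.08 for all genes. The size of each error is given as an implied SE, which is the authors' change over the normal deviate that their p corresponds to.

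**Figure D1:**
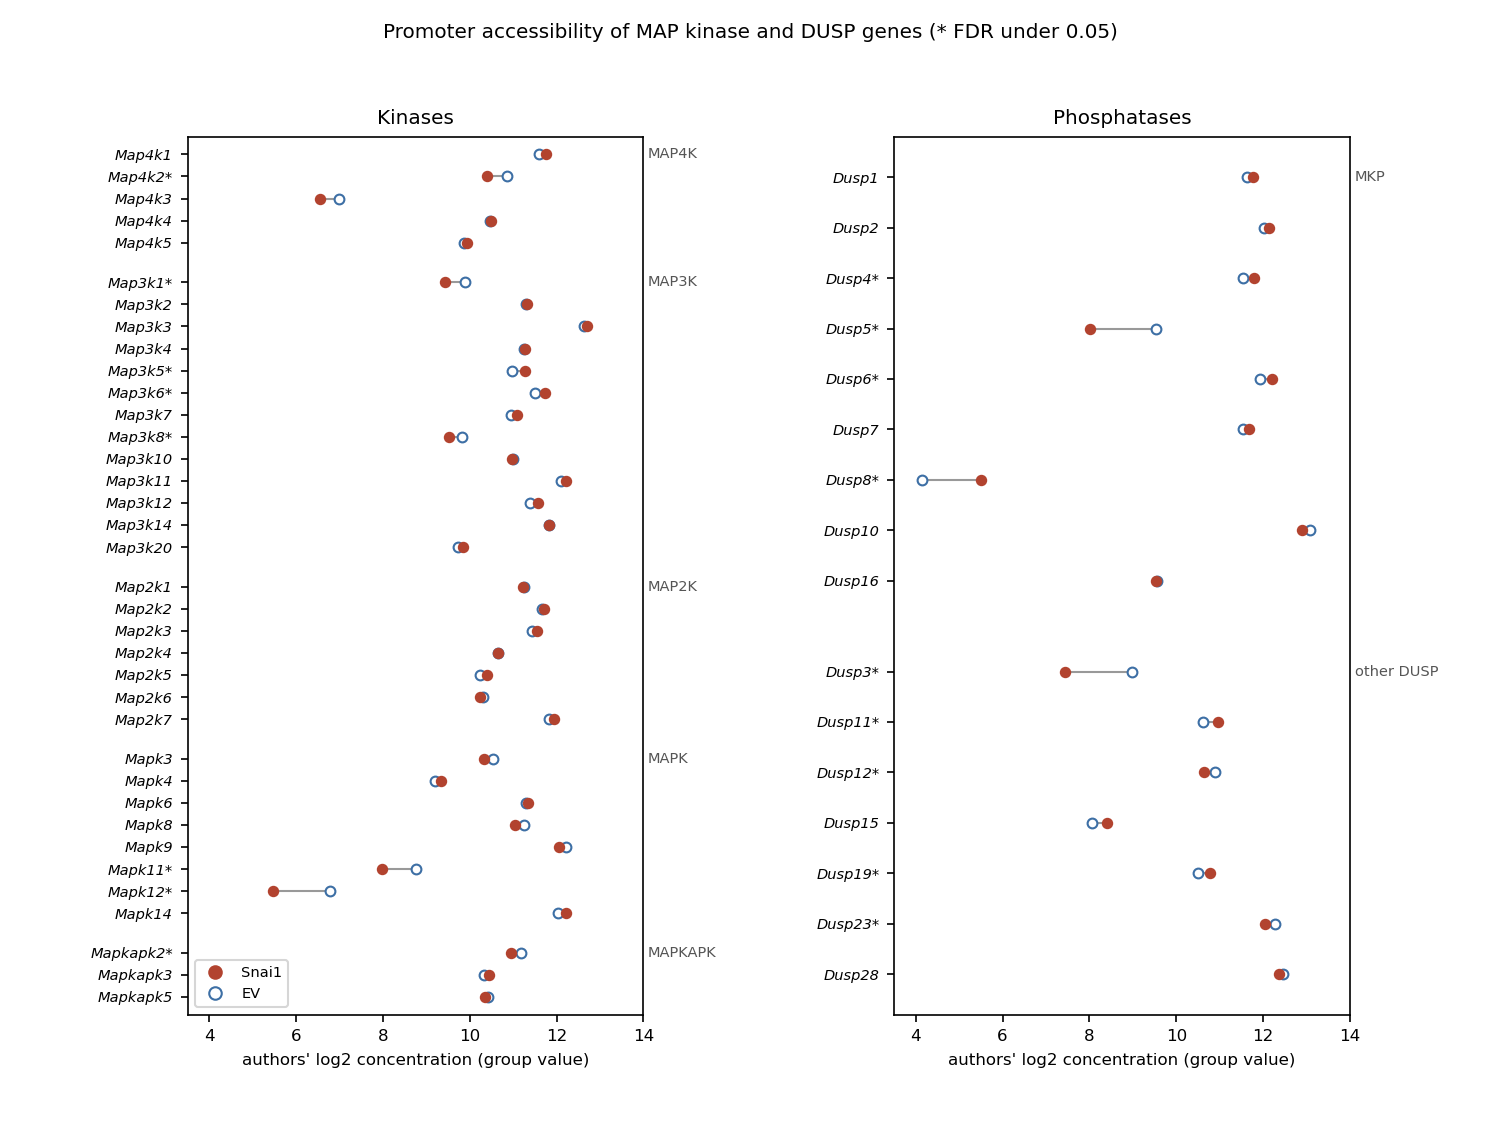
Log2 concentration of the promoter windows of the kinases (left) and phosphatases (right), by tier, in Snai1 (filled) and EV (open) as the authors' group values, with no error per group; an asterisk marks FDR under 0.05 and MKP the MAP kinase phosphatases. Dusp8, Mapk12 and Map4k3 lie lowest, and the widest gaps are at Dusp3, Dusp5, Dusp8 and Mapk12.

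At the top of the cascade, 1 of 5 MAP4K windows was called (20%, against 29.9% of all genes). Map4k2, a germinal centre kinase that feeds JNK signalling, had a log2 concentration of 10.40 in Snai1 and 10.87 in EV in the authors' deposited table (chr19:6340160-6342160; change -0.47, implied SE 0.078, FDR 4.62e-08). Of 7 other windows within 100 kb of it, only that of Rasgrp2, a Rap exchange factor gene 59423 bp away, was called, and it was lower too (-0.72, FDR 3.57e-12). Men1, 6181 bp away, had a value of 0.13 (FDR 0.136). Map4k3 had a log2 concentration of 6.55 in Snai1 and 7 in EV, a change of -0.45, close to that of Map4k2, but with an implied SE of 0.23 it did not pass (FDR 0.129). Map4k1, the blood-restricted member HPK1, was the most open of those not called, with 11.76 in Snai1 and 11.60 in EV (0.16, FDR 0.117).

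Among 13 MAP3K windows 2 were called higher and 2 lower (30.8%, against 29.9% of all genes). Map3k5, which encodes the stress-activated kinase ASK1, had a log2 concentration of 11.28 in Snai1 and 10.98 in EV in the authors' deposited table (chr10:19933526-19935526; 0.30, implied SE 0.066, FDR 7.75e-05). Its relative Map3k6 (ASK2) had 11.74 in Snai1 and 11.51 in EV (0.23, FDR 0.0313). The ASK pair was thus higher by 1.23-fold and 1.17-fold. The Map3k6 window lies 2839 bp inside the annotated gene, at a RefSeq promoter start. Map3k1, the JNK-activating kinase MEKK1, had 9.43 in Snai1 and 9.88 in EV (chr13:111808883-111809983, change -0.45, implied SE 0.13, FDR 0.00241). Its window lies 9286 bp inside the annotated gene, with its start position 10 bp from a RefSeq promoter start. Map3k8, the ERK-activating kinase TPL2 of inflammatory signalling, had 9.53 in Snai1 and 9.83 in EV (chr18:4352853-4353953; -0.30, implied SE 0.11, FDR 0.0273). These last windows had the lowest concentrations of the tier, with means of 9.67 for Map3k1 and 9.69 for Map3k8. Both are of the shorter, minus-strand type. Map3k20, with a longer window, had a mean of 9.79, so which is least open per base is not settled. The 9 windows of the tier that were not called ranged from -0.03 to 0.19 log2 (FDR 0.0594 to 0.929). Among these Map3k3, the most open, had 12.69 in Snai1 and 12.63 in EV.

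No window of the MAP2K tier was called, against 29.9% of all genes. All 7 members (Map2k1 to Map2k7) had a window, 0 were called at FDR 0.05 (0 also had an unadjusted p under 0.05 in the authors' deposited table), and the changes ranged from -0.07 to 0.16 log2. Map2k7, the JNK-activating MKK7 and the most open of them, had 11.94 in Snai1 and 11.83 in EV (0.11, 95% interval from the implied SE -0.05 to 0.27, FDR 0.297). Map2k1, the ERK-activating MEK1, had 11.22 in Snai1 and 11.25 in EV (-0.03, 95% interval -0.18 to 0.12, FDR 0.796). Changes of the size seen at Map4k2 lie outside both intervals.

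Every called window of the MAP kinases themselves was lower in Snai1. Of 9 windows 0 were called higher and 3 lower (33.3%), and the median change was -0.22 log2. Over all genes 29.9% were called, 19.6% higher and 10.3% lower, so the total was near the background. The difference in direction was not tested. Mapk12, the p38 gamma gene, had a log2 concentration of 5.48 in Snai1 and 6.79 in EV in the authors' deposited table (chr15:89140603-89141703; -1.31, 2.48-fold lower, implied SE 0.27, FDR 1.31e-05). Mapk11, the p38 beta gene, had 7.98 in Snai1 and 8.77 in EV (chr15:89149506-89150606; -0.79, 1.73-fold lower, implied SE 0.13, FDR 8.35e-09). The start positions of these neighbouring windows are 8903 bp apart on the same strand. Both were weakly open, with mean concentrations of 6.28 for Mapk12 and 8.42 for Mapk11, in the lowest 0.9% and 8.1% of all windows. The other 6 windows within 100 kb were not lower by the authors' FDR. Ppp6r2 (0.20, FDR 0.0276) and Selenoo (0.21, FDR 0.034) were higher, and Hdac10, 12003 bp from Mapk12, had a value of 0.07 (FDR 0.552). Mapk14, the p38 alpha gene and the only other p38 member with a window, was among the most open of all members and had 12.22 in Snai1 and 12.04 in EV (0.18, FDR 0.0528).

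**Figure D2:**
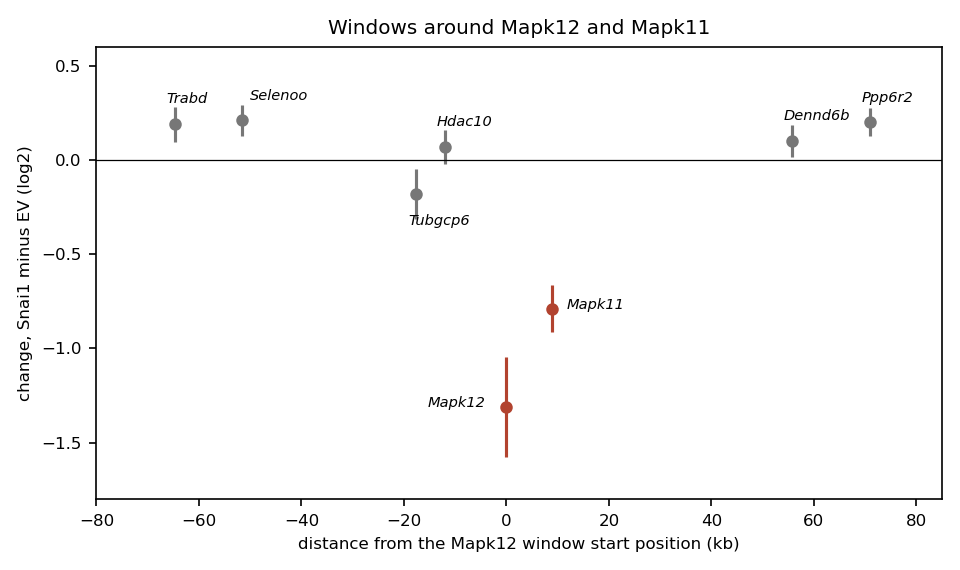
Change in Snai1 minus EV (log2, with ± 1 implied SE) of the windows within 100 kb of Mapk12 against distance from its start position; Mapk12 and Mapk11 are red, other genes grey. Mapk12 (-1.31) and Mapk11 (-0.79) lie far below the others, which range from -0.18 to 0.21.

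Mapk3 (ERK1), Mapk8 (JNK1) and Mapk9 (JNK2) were not called in the authors' deposited table, with values of -0.23 (FDR 0.0745), -0.22 (FDR 0.086) and -0.17 (FDR 0.139). They are named after their values were seen, because their surroundings had medians of 0.15, 0.15 and 0.10. Set against these medians and tested again, they were lower by 0.38 (FDR 0.00319), 0.37 (FDR 0.00389) and 0.27 (FDR 0.025). The atypical kinases Mapk4 and Mapk6 had values of 0.14 (FDR 0.298) and 0.05 (FDR 0.642).

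Of the MAPKAP kinases, Mapkapk2, the p38 effector that stabilizes cytokine mRNAs, had 10.95 in Snai1 and 11.19 in EV in the authors' deposited table (chr1:131097443-131098543; -0.24, implied SE 0.073, FDR 0.00567), with a median of -0.23 among windows within 5 Mb. Mapkapk3 and Mapkapk5 had values of 0.10 (FDR 0.394) and -0.06 (FDR 0.628).

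The MKP class held the call with the smallest FDR, a loss at Dusp5, and the largest gain, at Dusp8. Dusp5, a nuclear ERK phosphatase induced by ERK signalling, had a log2 concentration of 8.01 in Snai1 and 9.53 in EV in the authors' deposited table (chr19:53528318-53530318; -1.52, 2.87-fold lower, implied SE 0.14, FDR 1.61e-27). Smc3, the only other window within 100 kb, had a value of 0.03 (FDR 0.783). Dusp6, the cytoplasmic ERK phosphatase and a common readout of ERK activity, went the other way, with 12.21 in Snai1 and 11.92 in EV (chr10:99262231-99264231; 0.29, 1.22-fold higher, implied SE 0.077, FDR 0.00141). Dusp4, another nuclear ERK phosphatase, had 11.79 in Snai1 and 11.54 in EV (chr8:34806610-34808610; 0.25, 1.19-fold higher, implied SE 0.064, FDR 9.06e-04). The ERK phosphatases with a called window therefore split, the weakly open Dusp5 lower and the widely open Dusp6 and Dusp4 higher. Less the median of windows within 5 Mb and tested again, Dusp6 stayed higher (0.23, FDR 0.0258), whereas Dusp4 was not called (0.10, FDR 0.374).

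Dusp8, a phosphatase of JNK and p38, had 5.50 in Snai1 and 4.15 in EV in the authors' deposited table (chr7:142095184-142096284; 1.35, 2.55-fold higher, implied SE 0.39, FDR 0.00329). Its mean concentration of 4.98 ranks in the lowest 0.1% of all windows, and its implied SE is the widest among the members. The 5 MKP windows that were not called ranged from -0.20 to 0.15 log2 (FDR 0.103 to 0.901). Dusp10, a phosphatase of JNK and p38 and the most open member of all, had 12.89 in Snai1 and 13.09 in EV (-0.20, FDR 0.103), and windows within 5 Mb of it on chromosome 1 had a median of -0.25. The early response genes Dusp1 and Dusp2 each had a value of 0.12 (FDR 0.166 and 0.248).

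Of 7 Dusp genes outside the MKP class, 2 were called higher and 3 lower (71.4%, against 29.9% of all genes). Dusp3, the small phosphatase VHR, had a log2 concentration of 7.43 in Snai1 and 8.98 in EV in the authors' deposited table (chr11:101984691-101985791; -1.54, 2.91-fold lower, implied SE 0.17, FDR 1.43e-17). Its window lies 2222 bp inside the annotated gene, at a RefSeq promoter start of Dusp3, and no other window lies within 100 kb. Dusp11, which acts on RNA rather than on kinases, had 10.95 in Snai1 and 10.61 in EV (chr6:85961567-85962667; 0.35, implied SE 0.074, FDR 3.41e-05), and both windows within 100 kb of it, Tprkb and Nat8f1, were higher as well (0.22 and 0.23). Dusp19, a JNK pathway scaffold and phosphatase, had 10.78 in Snai1 and 10.50 in EV (chr2:80616214-80618214; 0.28, FDR 0.0096). Dusp15 did not pass, with 8.40 in Snai1 and 8.06 in EV (0.34, implied SE 0.14, FDR 0.0546).

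Dusp12, whose yeast counterpart acts in ribosome assembly, and Dusp23, a small phosphatase, were lower and shared a stretch of chromosome 1. Dusp12 had 10.64 in Snai1 and 10.89 in EV (chr1:170885440-170886540; -0.25, FDR 0.00298) and Dusp23 had 12.05 in Snai1 and 12.28 in EV (chr1:172632874-172633974; -0.23, FDR 0.0378) in the authors' deposited table. Both sat on the median of the windows within 5 Mb, which was -0.25 for each. Of the 6 members on chromosome 1, the 5 in the lower stretch (Dusp10, Dusp12, Dusp23, Dusp28 and Mapkapk2) had changes of -0.25 to -0.07, against neighbourhood medians of -0.25 to -0.18. Dusp28, the most open of the non-MKP genes, had 12.37 in Snai1 and 12.45 in EV (-0.07, FDR 0.528).

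**Figure D3:**
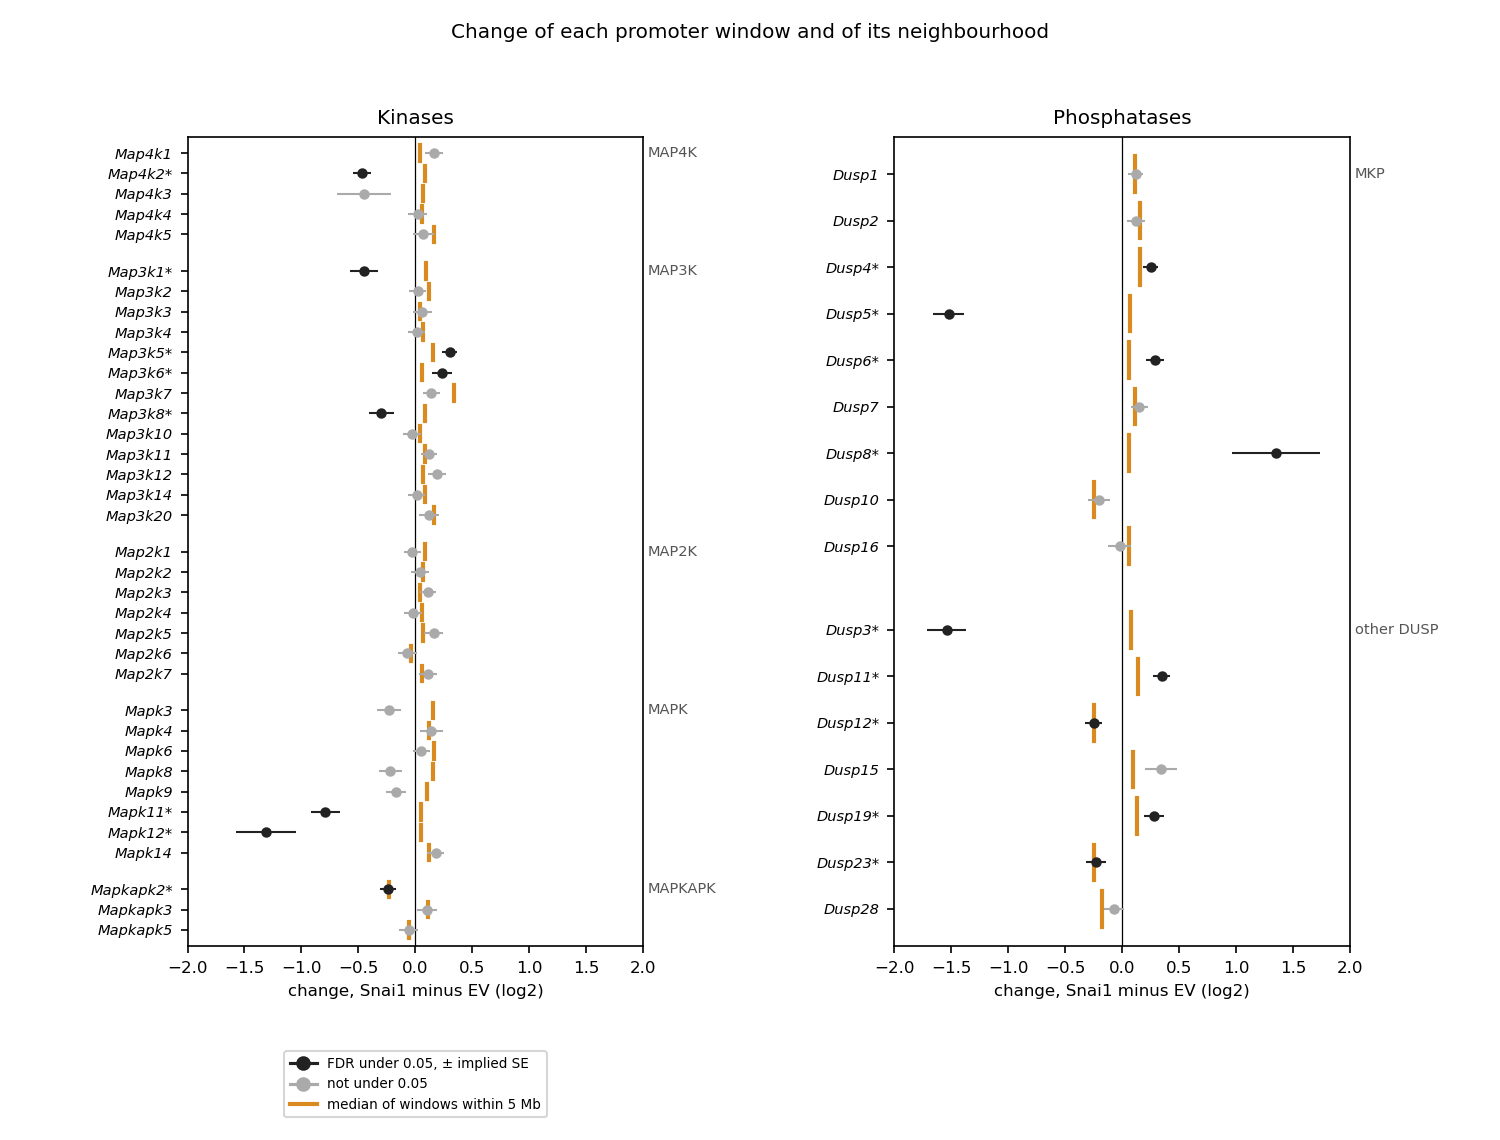
Change in Snai1 minus EV (log2) of the members with ± 1 implied SE, black where FDR was under 0.05 and grey otherwise, beside the median change of the other windows within 5 Mb (orange; all other windows of the chromosome for Map3k8). Mapkapk2, Dusp12 and Dusp23 lie on their orange marks, whereas Dusp5, Dusp3, Dusp8, Mapk11 and Mapk12 lie far from theirs.

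Called kinases were mostly lower in Snai1, and called phosphatases lay on both sides. Among 37 kinases 9 were called (24.3%), 2 higher and 7 lower, and among 16 phosphatases 9 (56.2%), 5 higher and 4 lower, against 29.9% of all genes, 19.6% higher and 10.3% lower. The median change was 0.02 log2 for kinases, with quartiles of -0.22 and 0.12, and 0.12 for phosphatases, with quartiles of -0.21 and 0.28. A change of at least 0.5 log2 either way was seen in 2 kinases, both lower (5.41%), and in 3 phosphatases, 1 higher and 2 lower (18.8%), against 6.39% of all genes. Lists this short move by several percent with a single gene, and the difference between them was not tested. Restricted to the 9 MKP genes, the phosphatases called were 3 higher and 1 lower.

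**Figure D4:**
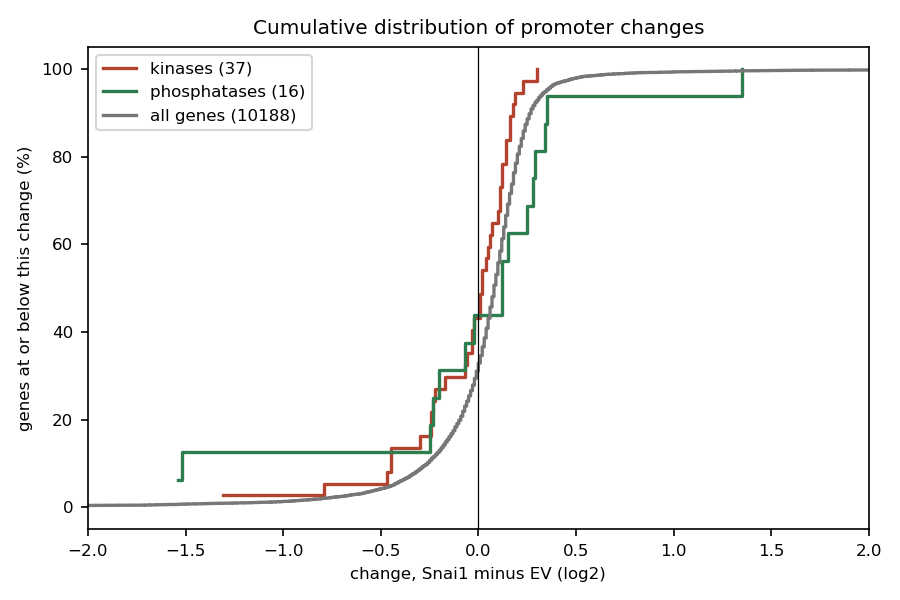
Cumulative share of genes (%) against change in Snai1 minus EV (log2) for the 37 kinases, the 16 phosphatases and all 10188 genes; 65 of all genes lie beyond ± 2 and are not shown. The kinase curve lies left of that of all genes over most of its range (median 0.02 against 0.08), and the phosphatase curve is wider, from -1.54 to 1.35.

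Among the members, changes beyond 0.5 log2 were all at windows with a mean log2 concentration below 9. That mean is over both groups, so a loss itself lowers it. Dusp5 had a mean of 8.96, but 9.53 in EV. The cut at 9 also takes no account of window length. Of the members with changes beyond 0.5 log2, Dusp3, Dusp8, Mapk11 and Mapk12 have the shorter windows and Dusp5 the longer type. Below a mean log2 concentration of 9 lay 7 members, of which 1 was called higher and 4 lower (median absolute change 1.31), against 32.9% called and a median absolute change of 0.26 for the 1118 genes there. At 9 or more, 13 of 46 members were called, 6 higher and 7 lower (28.3%, against 29.5% of all genes). These 46 members lay between -0.47 and 0.35, whereas all genes at that level ranged from -5.3 to 4.66. At these open windows 7 of 34 kinases and 6 of 12 phosphatases were called. The implied SE was larger at weak windows, with a median of 0.17 for members below 9 and 0.08 for the others.

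**Figure D5:**
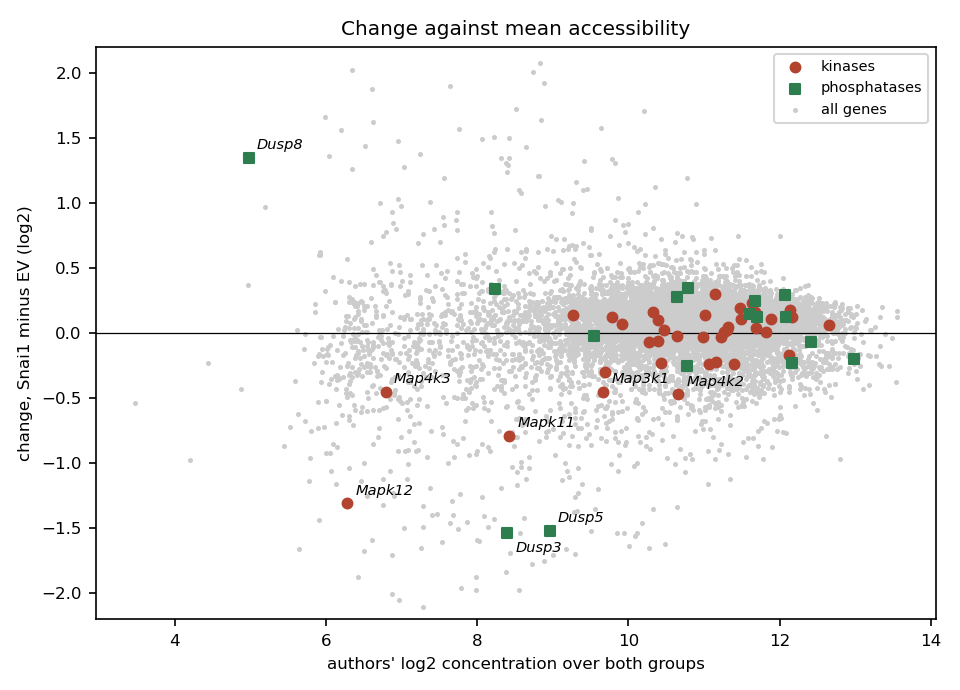
Change in Snai1 minus EV (log2) against mean log2 concentration for kinases (red circles), phosphatases (green squares) and all genes (grey); 59 of all genes lie beyond ± 2.2 and are not shown. The members with changes beyond 0.5 log2 (Dusp3, Dusp5, Dusp8, Mapk11, Mapk12) all lie below a concentration of 9.

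The split between directions depended on the centre from which changes were measured. Less the median of all windows (0.08) and tested again with the implied SE, 20 of the 53 members were called. Of 37 kinases 1 was higher and 10 lower, and of 16 phosphatases 4 were higher and 5 lower. Over all genes 21% were then called, 7.25% higher and 13.8% lower. Less the median of windows within 5 Mb, 13 of the 53 members were called, against 13.9% of all genes, 5.39% higher and 8.49% lower. These were 0 kinases higher and 8 lower, and 3 phosphatases higher and 2 lower. Under both centrings the share of members called was above that of all genes, a contrast that was not tested. Of the 18 members called by the authors' FDR, 10 were called again in the same direction: Map4k2, Map3k1, Map3k8, Mapk11, Mapk12, Dusp5 and Dusp3 lower, and Dusp6, Dusp8 and Dusp11 higher. Map3k5 (0.15, FDR 0.108), Map3k6, Dusp4 and Dusp19 were among those no longer called, as were Mapkapk2, Dusp12 and Dusp23, whose differences from their surroundings were at most 0.02 either way.

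Other genes of the pathway showed no uniform direction. Over all genes 29.9% were called, 19.6% higher and 10.3% lower, with a median of 0.08. The shares of these short lists were not tested against it. Of 23 Ras and Raf input genes with a window, the authors' deposited table called 2 up and 3 down (21.7%; median 0.04). Rasgrp3, a Ras exchange factor gene, had a weakly open window with a change of -1.66 (FDR 8.63e-07), Rasgrp2 changed by -0.72 and Mras by -0.40 (FDR 0.0177), while Sos2 changed by 0.29 (FDR 0.00477). Of 17 genes of Ras and Raf brakes, 3 were higher and 4 lower (41.2%; median 0.00). The adaptor genes Cblb (-0.88, FDR 1.28e-14) and Sh2b3 (-0.47, FDR 4.29e-06) and the feedback inhibitor gene Spry4 (-0.43, FDR 1.82e-05) were lower, and Dok2 was higher (0.39, FDR 2.63e-05). Cblb lay in a neighbourhood of chromosome 16 with a median of -0.47 and was still lower after its subtraction (-0.41, FDR 0.00207). Sos2 was no longer called after subtraction of its neighbourhood median (0.13, FDR 0.362).

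Of 12 scaffold genes 4 were higher and 1 lower (41.7%, against 29.9% of all genes, with a median of 0.125). The JNK scaffold Mapk8ip3 was at 0.24 (FDR 0.00193) and Mapk8ip1 at -0.80 (FDR 7.97e-04) in the authors' deposited table, besides Lamtor2 (0.20) and Traf2 (0.21). The Mapk8ip1 window lies 8663 bp inside the gene and was weakly open, with 6.23 in Snai1 and 7.04 in EV. After subtraction of the neighbourhood medians 0 of these 12 were higher and 1 was lower. Of 9 kinases of the same families under other names 1 was called (11.1%), Pak2 (-0.57, FDR 5.83e-12), in a neighbourhood with a median of -0.41. Of 6 effector kinase genes 2 were called (33.3%). Rps6ka4 (MSK2) was higher (0.36, FDR 9.86e-04) and Rps6ka5 (MSK1) lower (-0.28, FDR 0.0229, neighbourhood median -0.31). Of 10 other phosphatases that act on MAP kinases 1 was called (10%), Ppm1d (0.27, FDR 0.00629). It was not called after subtraction of its neighbourhood median (0.19, FDR 0.128). The same held for Pak2 (-0.16, FDR 0.168).

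Transcription factors and early genes at the end of the pathway were near the background, with 6 of 29 higher and 3 lower (31%; median 0.09). Ier2 (0.40, FDR 1.37e-06) and Myc (0.37, FDR 1.40e-06) were higher and Egr3 (-0.59, FDR 1.15e-06) was lower. Ets2 was lower by the authors' FDR (-0.68, FDR 1.86e-19) but lay in a chromosome 16 neighbourhood with a median of -0.61. The ERK-responsive genes Fos (0.09, FDR 0.365) and Egr1 (0.13, FDR 0.224), named after their values were seen, were not called.

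Shared windows limit how far a value belongs to 1 gene. For 5 members, Map4k1, Map4k5, Map3k11, Map3k12 and Map2k3, the window overlapped that of another gene. None of these 5 was called, against 29.9% of all genes, a list too short to read as a trait of shared windows. Map4k5 and Atl1 start 58 bp apart on opposite strands and had values of 0.07 and 0.11. Map3k12 and Tarbp2 had values of 0.19 (FDR 0.0594) and 0.10. Windows of the called members overlapped no other window of the table.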

How the data were processed

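The authors' deposited table held, per the file headers, a log2 concentration per promoter window, overall and by group, with a log2 fold, p-value and FDR per window. The submitters' processing notes name fastp, Bowtie2, Picard and DiffBind with build mm10; versions, counting rule, scaling and Tn5 shift are not stated there. The deposited log2 fold ran from EV minus Snai1, and its sign was turned. Of 10274 rows 3 were repeats. Windows of 2001 bp (plus strand) and 1101 bp (minus strand) run from 1000 bp before a start position, and the nearest RefSeq 5' end within 1000 bp on that strand, protein-coding first, otherwise the one spanning gene, named the window. Strand came from the RefSeq promoter table for 44 of the 53 members, and from window width for the others. The shorter windows see only 100 bp after the start.

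The authors' FDR at 0.05 was the only test of the deposited changes. The table holds no value per library, so no fit across libraries was run. The implied SE took the median of its concentration bin (20 bins) for changes under 0.1 log2. Re-tests used it with Benjamini-Hochberg adjustment over all 10271 windows. A check on simulated data drew its errors from the implied SE itself and covered only the centring on all windows. It therefore cannot vouch for that SE or for the re-tests against neighbours. Those re-tests also leave out the error of the neighbourhood median. Neighbourhood medians used other windows within 5 Mb, or the chromosome where fewer than 10 lay there (Map3k8). Named were all called members, those not called with a change of at least 0.25 log2, the most open of each tier, and up to 4 called genes per pathway list. 1 member is included in the counts but not reported here. Other members named are named for their role or after their values were seen. Members and lists were chosen with earlier results of these data known. Python 3.11.15, numpy, pandas and scipy were used.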

Additional observations from a re-analysis of the deposited data

How the results depend on the processing

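Main counts were 18 members called, 9 kinases and 9 phosphatases. Of all genes 29.9% were called by the authors' FDR, 21% less the median of all windows and 13.9% less that of windows within 5 Mb. No share of all genes is given for the other settings, so their counts cannot be set against a background. With windows within 100 bp of the annotated 5' end 9 were called, 3 of them kinases, and fewer genes (33) remained. Among those left out were Dusp5 (173 bp from that end), Dusp8 (623 bp), Mapk12 (874 bp) and Dusp3 (2222 bp inside the gene). Their changes could therefore not be checked under this setting. Of the strongest losses and the strongest gain, only the loss at Mapk11 (-0.79) stayed in. With the longer, plus-strand windows alone 8 of 26 members were called (4 kinases, 4 phosphatases), and with the shorter, minus-strand windows alone 10 of 27 (5 kinases, 5 phosphatases). With MKP genes as the only phosphatases 4 were called, and with changes set against neighbours within 5 Mb 5 phosphatases. Under that setting Dusp23 changed sign (0.02). The smallest-p window, windows within 1000 bp of the 5' end, FDR 0.01, windows of lowest concentration left out and chromosome 16 left out gave 14 to 18 members, 7 to 9 kinases and 7 to 9 phosphatases called, and centring on the median of all windows gave 20, 11 and 9. The median change ranged over these alternatives from -0.06 to 0.085 for kinases (main 0.02), below 0 under both centrings and with the shorter windows, and from 0.04 to 0.135 for phosphatases (main 0.12). The lowest accessibility windows have the widest errors. No paired analysis was possible because the table holds no value per library, so leaving out a replicate was not run either.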
